A study of Mus musculus with 3 samples.

Results

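The 10 genes described here encode amino acid transporters of the plasma membrane and were followed in CD4 T cells cultured in complete and in nutrient-reduced media. They are Slc7a5, Slc3a2, Slc43a1, Slc43a2, Slc38a1, Slc38a2, Slc1a5, Slc7a1, Slc7a6 and Slc7a11. They were chosen by name, and the 10 symbols matched 10 of the 23282 gene rows of each library. Of the 10, 9 passed the filter on low values, which asked for at least 2 libraries at 0.946 CPM or more (reads scaled to a common library size, here the level of 10 reads at the median depth) and at least 15 reads in total, and 12770 rows of the whole table passed it. Slc43a1 was the member that did not pass. Gene positions are those of RefSeq on GRCm38.p6, the assembly behind the mm10 build that the submitters' processing notes name, and no member overlaps another gene that has a row.

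The cells were isolated from the spleen and lymph nodes of C57BL/6 mice, stimulated with antibodies to CD3 and CD28 at 2 µg/ml and harvested at 72 h, and this held for every group. The groups differed in the medium. Complete medium (CM) was RPMI-1640 with 10% fetal bovine serum, dialyzed medium (DM) was RPMI made without amino acids and given serum from which small molecules had been dialyzed, and DM+Met was DM to which 30 µM methionine was added. By the study's own measurement DM still contained methionine, so it was reduced there rather than absent, and DM+Met raised a single amino acid and did not restore the amino acid content of CM. GEO lists 1 sample for each medium, which carries 2 numbered files that its labels leave undescribed. These were taken as replicate libraries, 2 per medium and 6 in all, because the study describes 2 biological samples per medium, and every p-value rests on that reading. Separate cultures or animals are not named, so the p-values measure only the spread between these libraries. The study's methods give young adult female mice as the default.

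Free amino acids cross the plasma membrane through carriers that differ in substrate and in driving force. Some, such as LAT1 and xCT, exchange an amino acid inside the cell for one outside, some are driven by the sodium gradient, and others let the amino acid move down its own gradient. T cell activation is known to raise amino acid uptake, with LAT1 as a main route for leucine and methionine, and in many cell types amino acid shortage activates the transcription factor ATF4, which binds the amino acid response element near several transporter genes.

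Depth was 8504862 to 12377245 reads per library, recovered from the equal steps between the deposited values, and the libraries of a medium correlated across rows at r = 0.938 for CM, 0.919 for DM and 0.973 for DM+Met. DM library 2 correlated at 0.947 and 0.940 with the DM+Met libraries, above its value with DM library 1. The ribosomal RNA precursor row Rn45s took 31.0 to 32.9% of reads for CM, 37.2 to 38.3% for DM and 15.5 to 20.1% for DM+Met. The summed level of the 7 of 8 CD4 T cell markers that had a row was 1438 to 1503 CPM for CM, 1371 to 1735 for DM and 1481 to 1546 for DM+Met. Summed levels of markers of other cells reached at most 103 CPM over any list. Levels are given below as the deposited log2(CPM + 1), with the reads behind them. They are compared between media for the same gene and not between genes.

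The comparison of DM with CM asks what a reduction of amino acids and small molecules does to these transcripts. Of the 9 members tested, Slc7a1 rose and none fell (limma, adjusted p below 0.05). Over all rows 16.9% were called, 7.80% higher and 9.07% lower. The libraries of DM and CM did not overlap for 3 of 9 members, each of them higher in DM, against 54.1% of all rows. The median log2 fold change was 0.26 over the 9 members and 0.07 over all rows.

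The comparison of DM+Met with CM addresses which differences from CM are seen when methionine has been added to DM. Slc7a1, Slc7a5 and Slc38a1 were higher in DM+Met, 3 of 9 members, and none was lower. Over all rows 15.3% were called, 6.92% higher and 8.36% lower. The libraries did not overlap for 7 of 9 members, 5 higher and 2 lower, against 60.9% of all rows. The median was 0.30 over the members and 0.06 over all rows.

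The comparison of DM+Met with DM asks what added methionine alone changes. No member passed the threshold in limma, and none passed with limma-voom. At an unadjusted p below 0.05 there were 2, Slc43a2 and Slc7a5. Few rows passed anywhere in the table, 0.0548% in all, 0.0392% higher and 0.0157% lower. The libraries did not overlap for 4 of 9 members, 3 higher and 1 lower, against 41.0% of rows, and the medians were 0.21 over the members and 0.01 over all rows. Slc3a2, Slc7a6, Slc7a11 and Slc38a2, whose DM+Met values are otherwise set against CM below, had log2 fold changes against DM of 0.21, 0.24, 0.59 and −0.14, with adjusted p-values of 0.766 to 0.916. The 3 comparisons share libraries, so their values are set side by side and not tested against each other.

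**Figure D1:**
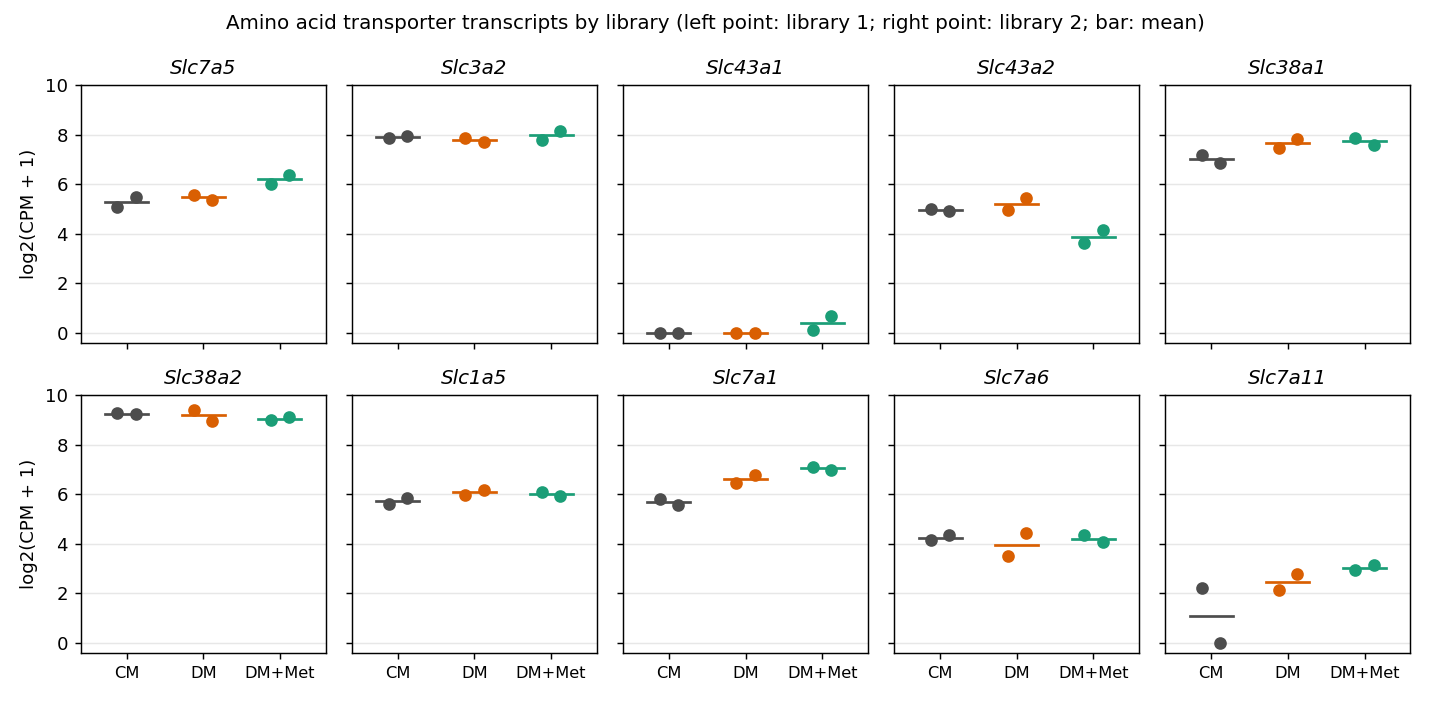
Level of each of the 10 transporter transcripts as log2(CPM + 1) on the y axis, by medium on the x axis, with a point for each of the 2 libraries and a bar for their mean. Slc7a1 has means of 5.70 for CM, 6.61 for DM and 7.04 for DM+Met, Slc43a2 lies at 3.89 in DM+Met against 4.94 in CM and 5.20 in DM, and Slc43a1 stays near 0.

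Slc7a1 (chr5:148327410-148399904) encodes CAT1, the cationic amino acid transporter that brings arginine and lysine into the cell. Its log2 level was 5.83 and 5.57 for CM (490 and 363 reads), 6.47 and 6.76 for DM (859 and 1214 reads), and 7.11 and 6.98 for DM+Met (1633 and 1494 reads). The order was CM, DM, DM+Met, and no library of one medium overlapped with another medium. In DM it was 1.88-fold higher than in CM (log2 fold change 0.91, SE 0.20, 95% interval 0.46 to 1.37, limma adjusted p = 0.0149). In DM+Met it was 2.54-fold higher than in CM (1.35, SE 0.20, 0.89 to 1.80, adjusted p = 0.00215). The step from DM to DM+Met was 0.43 (SE 0.20, −0.02 to 0.88) and did not pass (adjusted p = 0.541). The call in DM held in 8 of 10 other settings of scaling, filter, pseudocount and test, and was lost without any single library, with log2 fold changes of 0.77 to 1.06 and adjusted p from 0.0501 to 0.0871. The call in DM+Met held in 10 of 10 settings and in 4 of 6 fits without a library, and was lost without DM+Met library 1 (adjusted p = 0.0796) or library 2 (0.0646).

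Slc7a6 (chr8:106168219-106198714) encodes y+LAT2, which exchanges cationic for neutral amino acids and pairs with the Slc3a2 product. Its level was 4.14 and 4.35 for CM (146 and 151 reads), 3.50 and 4.43 for DM (101 and 233 reads), and 4.36 and 4.06 for DM+Met (233 and 186 reads). The DM libraries lay on either side of all the others, so the groups overlapped in every comparison. The log2 fold change was −0.28 (SE 0.41) in DM against CM and −0.04 (SE 0.41) in DM+Met against CM, with limma adjusted p-values of 0.685 and 0.970. The interval for DM ran from −1.20 to 0.65. Its neighbour Slc7a6os, on the opposite strand and 1723 bases away, had a level of 4.13 and 4.95 for CM, 4.99 and 5.82 for DM, and 5.41 and 5.43 for DM+Met. That gene does not overlap Slc7a6 and did not pass either (0.87, SE 0.36, adjusted p = 0.130 in DM against CM).

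Slc7a11 (chr3:50364936-50499087) encodes xCT, the light chain of the exchanger that takes up cystine for glutamate. It had 32 and 0 reads for CM, 33 and 66 for DM, and 79 and 93 for DM+Met, or log2 levels of 2.22 and 0.00, 2.13 and 2.77, and 2.93 and 3.14. The CM libraries stood far apart, with the DM+Met libraries above all others. The log2 fold change was 1.34 (SE 0.75, adjusted p = 0.245) in DM against CM and 1.93 (SE 0.75, adjusted p = 0.113) in DM+Met against CM. Both values turned on the CM libraries. In DM the change was 0.23 without CM library 2 (adjusted p = 0.817) and 2.45 without CM library 1 (adjusted p = 0.0752), and other settings gave 0.53 to 3.13. Without CM library 2 the change in DM+Met was 0.82 (adjusted p = 0.407), and without CM library 1 it was 3.03 (adjusted p = 0.0472). A count of 0 reads allows up to 3 reads in a library, a log2 level of 0.469 in CM library 2, and such limits cover counting error only.

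The RefSeq promoter table (GRCm38.p6) held 10 promoters for 7 of the 10 members, each from 250 bases before to 50 after a transcript start. A promoter each of Slc7a1, the member called in both comparisons with CM, Slc43a2, which had its lowest values in DM+Met, and Slc7a11 is shown 5′ to 3′ on the gene's strand. Slc7a1 and Slc43a2 had 2 promoters each, of which the farther 5′ is printed. They lie at chr5:148399855-148400154 (minus strand), chr11:75531444-75531743 (plus strand) and chr3:50443564-50443863 (minus strand), and capitals mark the letters of the amino acid response element TGATGNAA on either strand.
Slc7a1: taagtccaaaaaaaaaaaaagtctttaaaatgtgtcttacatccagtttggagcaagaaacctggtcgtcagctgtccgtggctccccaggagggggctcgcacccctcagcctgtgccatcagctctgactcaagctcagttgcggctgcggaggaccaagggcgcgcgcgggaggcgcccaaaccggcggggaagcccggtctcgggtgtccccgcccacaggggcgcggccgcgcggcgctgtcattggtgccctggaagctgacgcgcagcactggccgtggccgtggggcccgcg
Slc43a2: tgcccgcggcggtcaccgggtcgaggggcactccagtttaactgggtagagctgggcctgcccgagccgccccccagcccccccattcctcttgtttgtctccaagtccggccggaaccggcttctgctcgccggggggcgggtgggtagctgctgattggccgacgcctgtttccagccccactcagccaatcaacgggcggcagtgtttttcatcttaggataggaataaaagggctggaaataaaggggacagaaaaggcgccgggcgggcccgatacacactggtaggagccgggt
Slc7a11: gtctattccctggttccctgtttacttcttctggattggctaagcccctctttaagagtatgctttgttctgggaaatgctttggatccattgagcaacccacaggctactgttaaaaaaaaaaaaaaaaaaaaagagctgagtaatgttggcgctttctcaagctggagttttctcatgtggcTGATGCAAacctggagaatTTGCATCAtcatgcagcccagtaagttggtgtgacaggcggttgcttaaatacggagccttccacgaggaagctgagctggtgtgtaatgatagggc
The Slc7a11 promoter held 2 matches on opposite strands, which began 66 and 47 bases before the start and did not overlap. Among the 32851 promoters given there, 3.97% held the motif. The other 9 member promoters, those of Slc7a1, Slc7a6, Slc43a1, Slc43a2, Slc38a2 and Slc3a2, had no match in this window. Among the 7 members with promoters, the E-box CACGTG was found for Slc43a1 alone, beginning 64 bases before the start. It was found in 7.15% of all promoters. Slc7a5, Slc38a1 and Slc1a5 had no promoter given and were not searched for either motif. The printed sequences held no E-box. A match describes letters, and binding was not measured in these libraries.

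LAT1, the exchanger for large neutral amino acids such as leucine, phenylalanine and methionine, is a heterodimer of the Slc7a5 light chain and the Slc3a2 heavy chain, CD98. Slc7a5 (chr8:121881146-121907686) had a log2 level of 5.07 and 5.47 for CM (286 and 337 reads), 5.55 and 5.38 for DM (451 and 459 reads), and 5.99 and 6.38 for DM+Met (749 and 980 reads). Both DM+Met libraries lay above the other 4, while CM and DM overlapped. Slc7a5 was 1.89-fold higher in DM+Met than in CM (log2 fold change 0.92, SE 0.25, 95% interval 0.35 to 1.49, limma adjusted p = 0.0379). Against DM it was 1.65-fold higher (0.72, SE 0.25, 0.15 to 1.29), at an unadjusted p of 0.0179 and an adjusted p of 0.412 in limma. DM and CM differed by 0.20 (SE 0.25, −0.37 to 0.77, adjusted p = 0.633). The call against CM held in 7 of 10 other settings and was lost without each of the 6 libraries in turn, where the change was 0.72 to 1.12 and the adjusted p 0.0679 to 0.343.

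Slc3a2 (chr19:8706882-8723369) carries several light chains to the membrane, among them those of Slc7a5, Slc7a6 and Slc7a11. Its level was 7.84 and 7.96 for CM (2007 and 1931 reads), 7.85 and 7.70 for DM (2245 and 2336 reads), and 7.80 and 8.15 for DM+Met (2647 and 3380 reads). The 3 media overlapped throughout. The change was −0.13 (SE 0.17, −0.51 to 0.25) in DM against CM and 0.08 (SE 0.17, −0.30 to 0.45) in DM+Met against CM, with limma adjusted p-values of 0.639 and 0.803. The direction in DM turned to 0.03 when reads were scaled to library totals without Rn45s, which moved the median of all rows to 0.208.

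In the difference between the chains within a library the scaling cancels, apart from the added 1. The log2 level of Slc7a5 minus that of Slc3a2 was −2.77 and −2.49 for CM, −2.29 and −2.32 for DM, and −1.81 and −1.77 for DM+Met. The 3 media did not overlap, in the order CM, DM, DM+Met. The mean difference was 0.33 higher in DM than in CM, 0.52 higher in DM+Met than in DM, and 0.84 higher in DM+Met than in CM. These are values without a test.

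LAT3 and LAT4, encoded by Slc43a1 and Slc43a2, let branched-chain amino acids, phenylalanine and methionine move down their gradient without sodium or exchange. Slc43a2 (chr11:75529915-75577575) had a level of 4.98 and 4.90 for CM (268 and 225 reads), 4.97 and 5.43 for DM (298 and 478 reads), and 3.64 and 4.13 for DM+Met (137 and 197 reads). Both DM+Met libraries were the lowest of the 6, and CM and DM overlapped. In DM+Met the gene was at a 2.49-fold lower level than in DM (log2 fold change −1.32, SE 0.33, 95% interval −2.05 to −0.58). The unadjusted p was 0.00256 and the adjusted p 0.267 in limma, so the difference did not pass. Without each library in turn it was −1.56 to −1.07. Against CM the change was −1.05 (SE 0.33, −1.78 to −0.32, adjusted p = 0.0582), which passed in 1 of 16 alternatives, the filter of at least 10 reads in every library (adjusted p = 0.0410). DM and CM differed by 0.26 (SE 0.33, adjusted p = 0.619).

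Slc43a1 (chr2:84838855-84863586) had 0 reads in the 4 libraries of CM and DM and 1 and 7 reads in DM+Met. It was close to the limit of detection in every medium, and no fold change is given.

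In DM+Met the LAT1 light chain was at its highest and Slc43a2 at its lowest level. The difference between them was examined after their values had been seen. The log2 level of Slc7a5 minus that of Slc43a2 was 0.09 and 0.57 for CM, 0.58 and −0.06 for DM, and 2.35 and 2.25 for DM+Met. The DM+Met libraries lay above all 4 others, and CM and DM overlapped. The mean difference was 2.04 higher in DM+Met than in DM, a description of genes picked for their values.

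**Figure D2:**
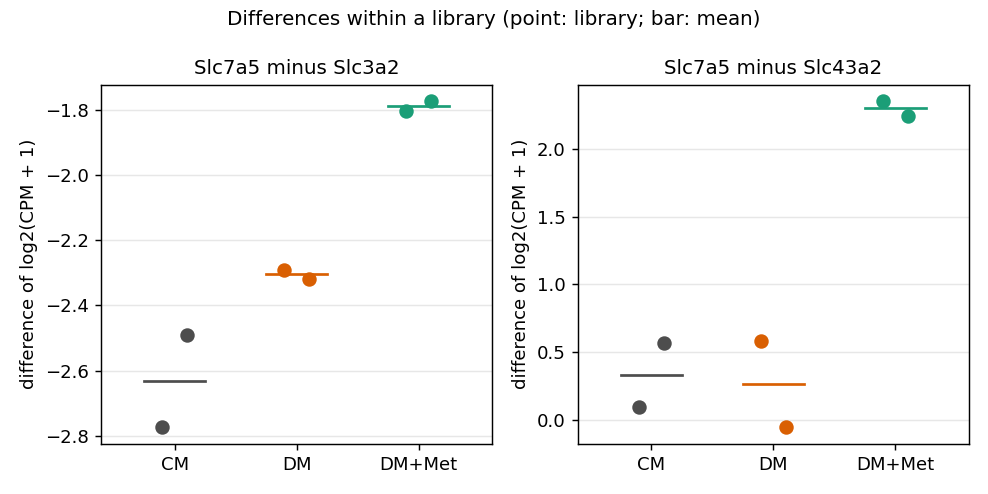
Difference of the log2(CPM + 1) levels of 2 genes within a library on the y axis, by medium on the x axis, with a point per library and a bar for the mean. Slc7a5 minus Slc3a2 goes from a mean of −2.63 in CM to −1.79 in DM+Met, with no overlap of media, whereas Slc7a5 minus Slc43a2 has means of 0.33 for CM, 0.26 for DM and 2.30 for DM+Met.

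Slc38a1 and Slc38a2 encode SNAT1 and SNAT2, sodium-coupled carriers of glutamine, alanine and other small neutral amino acids. Slc38a1 (chr15:96571418-96643438) had a level of 7.16 and 6.85 for CM (1245 and 893 reads), 7.45 and 7.83 for DM (1701 and 2568 reads), and 7.87 and 7.59 for DM+Met (2787 and 2282 reads). Both CM libraries lay below the other 4, and DM and DM+Met overlapped. The change was 0.73 in DM+Met against CM (1.66-fold, SE 0.20, 95% interval 0.29 to 1.17, limma adjusted p = 0.0356) and 0.64 in DM against CM (1.55-fold, SE 0.20, 0.19 to 1.08, adjusted p = 0.0541). The former passed and the latter did not, and DM+Met differed from DM by 0.09 (SE 0.20, −0.35 to 0.53, adjusted p = 0.934). In other settings the call in DM+Met held in 6 of 10 and a call in DM was made in 4 of 10. Without any single library neither was called, with changes of 0.57 to 0.88 for DM+Met.

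Slc38a2 (chr15:96687392-96699728) had 4645 to 6665 reads per library. Its level was 9.29 and 9.22 for CM, 9.41 and 8.97 for DM, and 8.98 and 9.13 for DM+Met. The DM libraries lay at either end of this range, and both DM+Met libraries lay below both CM libraries. The change was −0.06 (SE 0.17, −0.43 to 0.31) in DM against CM and −0.20 (SE 0.17, −0.57 to 0.17) in DM+Met against CM, with limma adjusted p-values of 0.835 and 0.465. Under scaling to library totals the latter turned to 0.20, with the median of all rows moved to 0.409.

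Slc1a5 (chr7:16781334-16798274) encodes ASCT2, an exchanger of neutral amino acids known for glutamine uptake. Its level was 5.60 and 5.84 for CM (416 and 438 reads), 5.99 and 6.17 for DM (613 and 803 reads), and 6.10 and 5.93 for DM+Met (808 and 713 reads). The CM libraries were the lowest 2, and DM and DM+Met overlapped. The change was 0.36 (SE 0.22, −0.12 to 0.85) in DM against CM and 0.30 (SE 0.22, −0.18 to 0.78) in DM+Met against CM, and neither passed in limma (adjusted p = 0.280 and 0.395). DM+Met differed from DM by −0.06 (SE 0.22, adjusted p = 0.963).

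**Figure D3:**
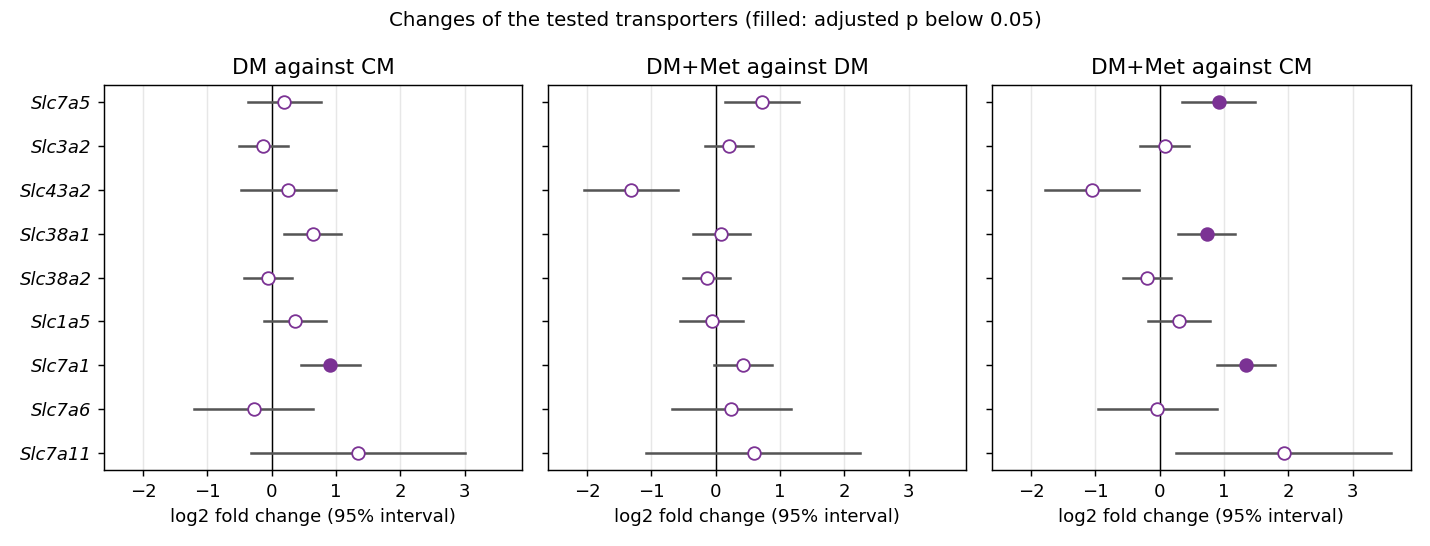
Log2 fold change of the 9 tested transporters on the x axis with its 95% interval as a line, in a panel for each comparison. Filled points passed the threshold, which are Slc7a1 (0.91) in DM against CM and Slc7a1 (1.35), Slc7a5 (0.92) and Slc38a1 (0.73) in DM+Met against CM, and the widest intervals belong to Slc7a11.

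The other transporters were taken from 2 lists. Of 27 further plasma membrane transporters, 16 were tested and 6 had no read in any library. 1 was called higher in DM than in CM and 2 in DM+Met than in CM, and none was called lower. Over all rows 7.80% and 6.92% were called higher. The median log2 fold change of the 16 was 0.73 and 0.78 in these comparisons, beside 0.07 and 0.06 over all rows. With genes at 0 in a medium set at the bounds described below, it was 0.74 and 0.79. Slc1a2, Slc1a3, Slc7a10 and Slc6a13 had 0 reads in both CM libraries, so their changes against CM could not be negative. Slc38a3 had 0 reads in DM and DM+Met and could only fall. All of these stay in the medians, which were in part fixed by which genes passed the filter. Slc1a2, a glutamate transporter, had 0 reads for both CM libraries, 29 and 39 for DM, and 4 and 4 for DM+Met. Its mean CPM in DM was 8.82-fold above the level of 3 reads in each CM library. Slc7a10, an exchanger of small neutral amino acids, had 0 reads for CM, 12 and 7 for DM, and 80 and 29 for DM+Met. Its mean CPM in DM+Met was 12.6-fold above that level, from libraries at 6.7 and 2.43 CPM. These bounds cover counting error in CM only and not the spread between libraries. Slc6a9, the glycine transporter GlyT1, had 20 and 25 reads for CM, 69 and 161 for DM, and 155 and 179 for DM+Met, with a change of 2.01 (SE 0.52, adjusted p = 0.0295) in DM+Met against CM. With limma-voom none of the 16 was called in any comparison, Slc6a9 (limma-voom adjusted p = 0.0900), Slc1a2 and Slc7a10 included. Slc1a2 and Slc7a10 passed the filter only through the medium in which they were high, so their calls stand in the counts above but add nothing to the reads given.

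Of 16 transporters listed for lysosomes and mitochondria, 15 were tested and none passed in limma or limma-voom in any comparison. At an unadjusted p below 0.05 there were 5 in DM against CM, 1 in DM+Met against DM and 3 in DM+Met against CM. Slc29a3, which is in this list, carries nucleosides rather than amino acids. It was among the 5 and the 3, at an unadjusted limma p of 0.0442 and 0.0106, and stays in the counts and medians. Over the 53 transporters together, members and Slc29a3 included, 40 were tested. Of these, 2 were called in DM against CM, 0 in DM+Met against DM (7 at an unadjusted p below 0.05) and 5 in DM+Met against CM, each of them higher than in CM. Over all rows 16.9% and 15.3% were called in either direction in the comparisons with CM, and 7.80% and 6.92% were called higher. The 2 calls include Slc1a2 and the 5 include Slc7a10, which passed the filter only through the medium in which they were high.

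Among 8 carriers of other nutrients, all tested, 1 was called lower in DM and 2 in DM+Met relative to CM, and none was called higher. Over all rows 9.07% and 8.36% were called lower. The log2 fold change was positive for 3 of 8 in DM and 1 of 8 in DM+Met. Slc5a6 had the greatest increase, 2.21 in DM (SE 0.73, limma adjusted p = 0.0660) and 1.46 in DM+Met (SE 0.73, limma adjusted p = 0.215), from 0 and 26 reads in CM. Tfrc, the transferrin receptor for iron uptake, had a level of 7.83 and 7.75 for CM, 6.24 and 6.04 for DM, and 5.69 and 5.58 for DM+Met. It fell by 1.65 on the log2 scale in DM (SE 0.19, adjusted p = 6.93e-04) and by 2.15 in DM+Met (SE 0.19, adjusted p = 1.49e-04). Slc2a3, the glucose transporter GLUT3, had 1312 and 1823 reads for CM, 1189 and 1440 for DM, and 541 and 702 for DM+Met, and fell by 1.83 in DM+Met against CM (SE 0.24, adjusted p = 0.00107).

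Genes of the ATF4 response other than transporters were counted beside the members. Of 23 tested, 1 was called higher and 7 lower in DM against CM, and 1 higher and 6 lower in DM+Met against CM. Over all rows the shares were 7.80% higher and 9.07% lower, and 6.92% higher and 8.36% lower. None passed in DM+Met against DM, where 5 had an unadjusted p below 0.05 in limma. The 8 calls in DM and 7 in DM+Met became 3 and 2 without a trend in the fit, and 5 and 6 with the 2 media compared alone. Relative to CM the median of the 23 was −0.43 for DM and −0.14 for DM+Met, beside 0.07 and 0.06 over all rows. Atf4 itself had a level of 8.84 and 9.23 for CM, 8.03 and 8.20 for DM, and 8.13 and 8.06 for DM+Met, and fell by 0.92 for DM (SE 0.17, adjusted p = 0.00593) and by 0.94 for DM+Met (SE 0.17, adjusted p = 0.00499). Asns, which makes asparagine, fell by 1.65 in DM (SE 0.39, adjusted p = 0.0202) and by 1.41 in DM+Met (SE 0.39, adjusted p = 0.0391). The gene called higher was Atf5, a transcription factor related to ATF4, named after its values were seen. Its change was 2.04 in DM (SE 0.32, adjusted p = 0.00324) and 3.24 in DM+Met (SE 0.32, adjusted p = 2.37e-04). Ddit3, Trib3 and Chac1, known targets of the response, did not pass in any comparison. In DM against CM their log2 fold changes were −0.22 (SE 0.17), 0.57 (SE 0.33) and −0.11 (SE 0.54), and in DM+Met against CM they were 0.29 for Ddit3 and 0.73 for Trib3, while Chac1 was 2.30-fold higher (adjusted p = 0.163).

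**Figure D4:**
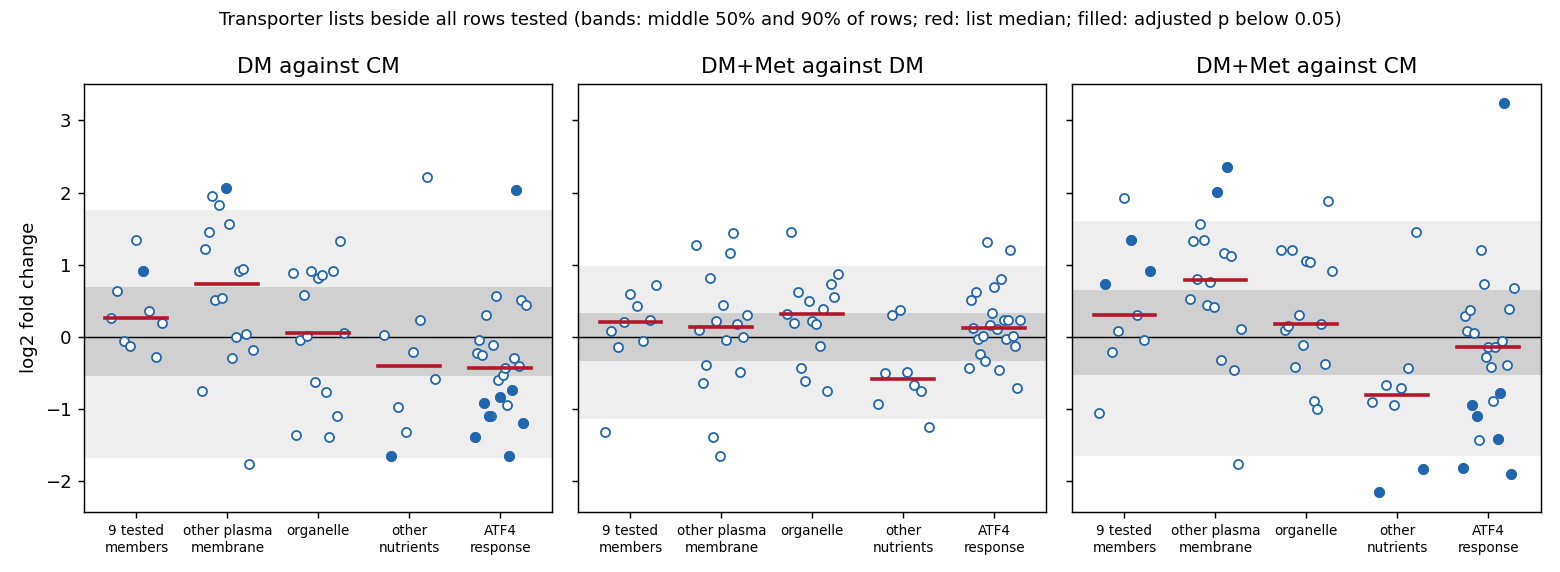
Log2 fold change of each tested gene on the y axis by gene list on the x axis, with a panel for each comparison, a red bar for the list median, and grey bands for the middle 50% and 90% of the 12770 rows. The transporter lists have medians of 0.05 to 0.78, the lowest for organelle transporters in DM against CM, where the median of all rows is 0.07. The median of the other nutrient carriers is −0.40 to −0.80, with genes from −2.15 to 2.21, and filled points passed the threshold.

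Markers of dividing cells moved with the media in the comparisons with CM. The 15 proliferation markers summed to 2308 to 2471 CPM for CM, 481 to 522 for DM and 445 to 467 for DM+Met. Relative to CM, 14 of 15 were called lower in DM and 13 of 15 in DM+Met, against 9.07% and 8.36% of all rows. The 7 B cell markers, with Pax5 at 0 reads in every library, summed to 87.6 to 103 CPM for CM, 79.9 to 81.8 for DM and 58.5 to 68.9 for DM+Met, with 0 and 1 called lower. The 6 CD8 T and NK cell markers summed to 67.9 to 79.3, 39.8 to 40.9 and 33.8 to 47.7 CPM in the same order, while the median log2 fold change against CM of the 5 tested was 0.90 in DM and 1.31 in DM+Met. Of these, Cd8a was called lower in DM (−1.72, adjusted p = 0.0323) and in DM+Met (−1.76, adjusted p = 0.0318). Klrb1c, with no read in CM and 45 and 34 reads in DM+Met, was called higher in DM+Met, after passing the filter through the dialyzed media alone. The 8 myeloid cell markers summed to 36.5 to 41, 43.4 to 49.7 and 48.9 to 79.6 CPM. In DM against CM, 6 of the 8 had positive and 2 had negative log2 fold changes. Lyz2 was called higher there (2.13, limma adjusted p = 0.0355), though no myeloid marker was called with limma-voom. Tyrobp and Fcer1g were lower, at −2.44 (limma adjusted p = 0.0620) and −0.24 (limma adjusted p = 0.681). The part of these markers in the values of Slc7a1, Slc7a5, Slc38a1 and Slc43a2 was not tested. The share of Rn45s was lowest in DM+Met, where the scaling factors of the authors' normalization were 1.164 to 1.224 against 0.897 to 0.938 in the other libraries. Scaled to library totals instead, the median of all rows was 0.409 in DM+Met against CM, and Slc7a1, Slc38a1 and Slc7a5 stood at 1.74, 1.12 and 1.31 and Slc43a2 at −0.68 (adjusted p = 0.163). In bulk RNA of this kind, fewer cells of a type and less RNA per cell cannot be told apart.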

How the data were processed

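RNA was sequenced with a Lexogen QuantSeq library kit, and per the submitters' processing notes Bowtie2, bedtools and the genome build mm10 were used, without versions. The authors deposited log2 values of TMM-scaled CPM plus 1 for 23282 rows in each of 6 libraries. TMM and CPM are stated by the study, and the base of the logarithm and the 1 were read off the spacing of the values. Reads were recovered from the equal steps between values, and at up to 300 reads at least 99.89% of values lay within 0.1 of a whole number. Counting strand is not given in the sources used here. Depth was 8504862 to 12377245 reads.

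The deposited values were fitted with limma 3.58.1 in R 4.3.3 (lmFit, then eBayes with an intensity trend) over all 6 libraries without covariates, with 6.87 prior degrees of freedom. Tests were two-sided, with Benjamini-Hochberg adjustment over the 12770 rows tested and a threshold of 0.05, and every adjusted p comes from this fit unless another is named. Because of the added 1, fold changes are understated where a gene has few reads. Repeated symbols (44 rows) were kept apart. The files' numbers did not pair the libraries (r of deviations between media −0.030 to 0.005).

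The members, the gene lists and the tests were chosen with earlier results of these data known. Genes named by rule were all 10 members, in each comparison up to 3 called genes per direction with the greatest change among the other transporters and carriers, Atf4, Asns, Chac1, Ddit3 and Trib3, and Slc7a6os. Atf5, Slc5a6, Slc1a3, Slc6a13, Slc38a3 and Slc29a3 were named outside this rule, with their values known. So were the markers Cd8a, Klrb1c, Lyz2, Tyrobp, Fcer1g, Pax5, Cd22 and Ms4a1. Alternatives changed the scaling, pseudocount, filter, test, libraries fitted and replicate block. No set test was run.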

Additional observations from a re-analysis of the deposited data

How the results depend on the processing

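Of 267 member values under other settings, 246 kept their direction and side of the threshold, 9 lost a call, 5 gained a call and 7 changed sign, and of 162 values without a library the numbers were 130, 20, 1 and 11. Of 268 values of the other named genes 16 lost a call, 3 gained a call and 3 changed sign, and of 162 without a library 35 lost a call and 6 changed sign. Each medium had 2 libraries, and with medians of all rows at 0.338 (DM+Met against DM) and 0.409 (DM+Met against CM) under library totals, several small changes differed in sign between scalings. The cause of each shift was not tested. A fit without a library assumes that the lone library of that medium varies like the other groups. In DM against CM (1 member called), 2 were called under library totals, under library totals without Rn45s, at a pseudocount of 5 and with at least 10 reads in every library, 0 without a trend and 0 with the 2 media alone, and 0 to 0 without single libraries. In DM+Met against CM (3 members), 1 was called with no filter beyond 1 read in 2 libraries, 1 without a trend, 1 with the 2 media alone, and 0 to 2 without single libraries. For DM+Met against CM, 4 members were called with at least 10 reads in every library and 2 at a pseudocount of 0.1. In DM+Met against DM the number of members called stayed at 0. With the file number as a replicate block, the calls of members were 1, 0 and 3, as without it. Over all rows, DM against CM (2154 called) gave 1329 without a trend, 795 with the 2 media alone and 541 to 1061 without single libraries. DM+Met against DM (7) gave 55 under library totals, 27 when every library needed 10 reads, 13 at a pseudocount of 5, 21 with limma-voom, 2 with no filter, 0 without a trend, 0 with the 2 media alone and 0 to 0 without single libraries. DM+Met against CM (1952) gave 944 without a trend and 268 to 1622 without single libraries, and library totals moved its split from 884 higher and 1068 lower to 2060 and 641. Totals without Rn45s gave 1094 and 812 there, and in DM against CM 1320 and 895 in place of 996 and 1158. The Slc7a5 minus Slc3a2 difference changed by 0.19 to 0.47 in DM against CM, 0.50 to 0.53 in DM+Met against DM and 0.70 to 0.98 in DM+Met against CM without single libraries. Under library totals, signs changed for Slc38a2 (0.23 in DM+Met against DM, 0.20 in DM+Met against CM), Slc1a5 (0.30) and Atf4 (0.34) in DM+Met against DM, and Slc7a6 (0.34) in DM+Met against CM. Under library totals without Rn45s they changed for Slc3a2 (0.03), Slc38a2 (0.09) and Chac1 (0.02) in DM against CM, Slc7a6 (0.08) in DM+Met against CM and Slc7a6os (−0.02) in DM+Met against DM. Without single libraries, log2 fold changes that crossed 0 ranged in DM against CM from −0.28 to 0.16 for Slc38a2, −0.74 to 0.19 for Slc7a6 and −0.37 to 0.16 for Chac1, in DM+Met against DM from −0.10 to 0.28 for Slc38a1, −0.36 to 0.08 for Slc38a2, −0.15 to 0.03 for Slc1a5, −0.22 to 0.71 for Slc7a6, −0.11 to 0.07 for Atf4, −0.03 to 0.51 for Asns and −0.39 to 0.43 for Slc7a6os, and in DM+Met against CM from −0.10 to 0.25 for Slc3a2 and −0.19 to 0.12 for Slc7a6. Depth limited what could be seen of genes near 0 reads, such as Slc43a1.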
